A study of Danio rerio with 4 samples.

Results

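Adult zebrafish regrow heart muscle after part of the ventricle is cut away. The genes described here are those whose transcript level stood apart from uninjured ventricle 20 days post amputation (dpa) in the same direction in both genotypes of the study. A gene was taken when its difference on the log2(CPM + 1) scale was at least 1 in size and of the same sign in WT and in dusp6 mutant fish, each set against its own uninjured library. CPM is a library's count scaled by its depth and its TMM factor (a correction for composition), and the pseudocount of 1 CPM makes these differences understate the change of low genes. Among 15621 genes with at least 50 counts in any library, 355 met this rule, of which 202 were higher at 20 dpa and 153 were lower.

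RNA from heart ventricles of fish aged 6 months to 1 year was sequenced in 4 libraries, 1 per group: AB* wild type (WT) uninjured, dusp6 pt30a/pt30a uninjured, WT at 20 dpa and dusp6 pt30a/pt30a at 20 dpa. Both 20 dpa groups had their ventricle resected and recovered for 20 days, and the uninjured groups are not described as sham operated. The mutants are homozygous for an allele of dusp6, which encodes a phosphatase that switches off the kinase ERK, and the allele is carried in every cell. Levels are given from here on in the order WT uninjured, dusp6 uninjured, WT 20 dpa, dusp6 20 dpa. The dusp6 transcript itself was at 85.1, 183, 105 and 121 CPM, so its level does not check the genotype labels.

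Total counts ran from 55197408 to 63222206 per library, and mitochondrially encoded genes took 17.7% to 18.7% of them. The labels give neither the number of ventricles behind a library nor the time of day at which tissue was taken. The uninjured pair and the 20 dpa pair were named by different patterns in the column headers, so injury cannot be told apart from a difference in how the pairs were prepared or sequenced. The summed level of 64 sarcomere, calcium handling and cardiac stress genes was 168500, 168700, 167000 and 169500 CPM, a sum of like size in all 4 libraries. In whole ventricle a lower value from fewer cells of a type and a lower value from less RNA per cell cannot be told apart.

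A resected zebrafish ventricle first seals the wound with a clot, then replaces it with new muscle. Epicardial cells on its surface make retinoic acid and matrix proteins, and endocardium, macrophages and fibroblasts take part. Muscle cells next to the wound loosen their sarcomeres, divide and draw more on glucose. Proteins made in bulk in growing tissue need chaperones in the cytosol and in the endoplasmic reticulum. Heart tissue also keeps a circadian clock, in which Rev-erb repressors oppose the activators Clock and Bmal over the day.

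The rule that chose these genes used the values given below, so the values are a description and carry no test. It also favours 20 dpa and uninjured pairs that do not overlap, as in all 202 higher and 152 of the 153 lower genes. Over all 15621 genes the 20 dpa pair lay above the uninjured pair for 29.1% and below it for 29.4%. In WT alone 547 genes (3.5%) were higher by 1 or more and 335 (2.14%) were lower, and in dusp6 alone 597 (3.82%) were higher and 647 (4.14%) were lower. The share that was higher in both genotypes was 1.29% of all genes above the floor of 50 counts, and the share that was lower in both was 0.979%. Only 15 genes (0.096%) moved by 1 or more in opposite directions. Total-count scaling in place of TMM gave 162 higher and 198 lower, so which direction holds more genes depends on the scaling.

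**Figure D1:**
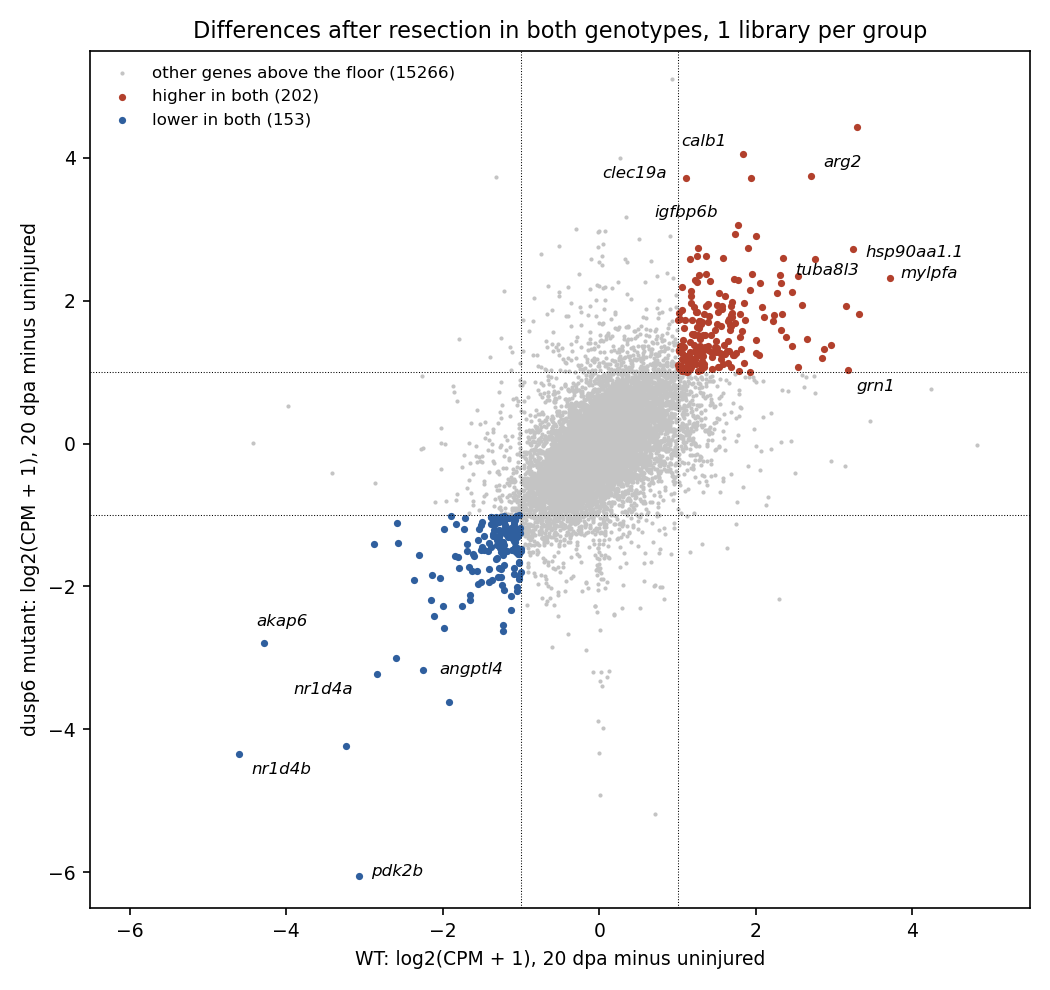
Each point is a gene with at least 50 counts in any library, placed by its log2(CPM + 1) difference between 20 dpa and uninjured in WT (horizontal) and in dusp6 (vertical). Coloured points are the 202 genes higher and the 153 genes lower by 1 or more in both genotypes, and the names mark genes described in the text, with nr1d4b far to the lower left and hsp90aa1.1 to the upper right.

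The genes highest above uninjured in both genotypes encode a chaperone, an arginase, a tubulin, collagen chaperones and skeletal muscle proteins. They are ranked by the smaller of their differences, among genes with a proper symbol and at least 250 counts in the highest library. The Hsp90 gene hsp90aa1.1, whose product helps myosin fold in zebrafish muscle, was at 12, 17.6, 122 and 122 CPM. Its 20 dpa level was 10.2-fold the uninjured level in WT (95% counting interval 9.45 to 11) and 6.96-fold in dusp6 (6.52 to 7.43). Both 20 dpa libraries thus stood at one level, far above both uninjured libraries. These intervals, like all that follow, cover counting error only and say nothing of variation between fish.

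The mitochondrial arginase gene arg2, whose product splits arginine into ornithine and urea, was at 12.8, 3.94, 89.1 and 65.5 CPM. It was higher 6.96-fold in WT (6.47 to 7.49) and 16.6-fold in dusp6 (14.6 to 19.0). The larger fold in the mutant goes with its lower uninjured level, since the 20 dpa level was higher in WT. The alpha-tubulin gene tuba8l3 was at 32.3, 23.0, 169 and 144 CPM, a fold of 5.22 (4.98 to 5.47) in WT and 6.28 (5.93 to 6.65) in dusp6. The gene of Pellino ligase peli1a, which tags signalling proteins of Toll-like receptors with ubiquitin, was at 1.79, 1.60, 15.3 and 12 CPM. For both genes the 4 libraries fell into an uninjured pair and a 20 dpa pair with a wide gap between them, which the rule favours.

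Further down the same ranking came a hyaluronidase gene, a transporter gene and genes of collagen folding. The hyaluronidase gene hyal2a was at 3.57, 2.52, 21.0 and 14.1 CPM, and the phosphate transporter gene slc20a1b at 16.0, 12, 69.5 and 61.4 CPM. The collagen chaperone Hsp47 has a pair of genes, and both were among the first 12: serpinh1a at 8, 6.70, 48.6 and 32.4 CPM and serpinh1b at 8.94, 3.94, 39.0 and 36.0 CPM. In all 4 genes both 20 dpa libraries lay above both uninjured ones, as the rule favours, with differences of 2.01 to 2.91.

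Ranked in the same way, by the smaller difference, the first of the lower genes was nr1d4b, a zebrafish member of the Rev-erb family of haem-binding repressors. It was at 58.2, 37.5, 1.44 and 0.90 CPM, so the uninjured level was 40.5-fold the 20 dpa level in WT (32.5 to 51.3) and 41.6-fold in dusp6 (31.2 to 56.8). Its paralog nr1d4a was at 7.06, 11.2, 0.127 and 0.307 CPM, a difference of -2.84 in WT and -3.22 in dusp6. The level of nr1d4a was thus near the limit of detection at 20 dpa, where 3 counts equal 0.0545 CPM in WT and 0.0575 CPM in dusp6. The pyruvate dehydrogenase kinase gene pdk2b, whose product holds back the entry of pyruvate into mitochondrial oxidation, was at 144, 254, 16.3 and 2.84 CPM. Its uninjured level was 8.86-fold the 20 dpa level in WT (8.28 to 9.5) and 89.5-fold in dusp6 (76.1 to 106).

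The scaffold gene akap6, whose product anchors protein kinase A at the nuclear envelope of muscle cells, was at 137, 103, 6.11 and 14.1 CPM. The gene of the lipoprotein lipase inhibitor angptl4 was at 91.6, 170, 18.4 and 18.1 CPM. For both, no 20 dpa library came within a factor of 4 of an uninjured one. Components of ubiquitin ligases followed: the F-box gene fbxo25 was at 11.7, 24.6, 1.09 and 2.2 CPM, and the Kelch-like genes klhl43 and klhl24b had differences of -2.37 and -2.03 in WT and of -1.92 and -1.88 in dusp6. The other genes among the first 12 were the matrix protease gene mmp11b, the autophagy gene WIPI1 (1 of 2), pcmtd2 and ntd5, with uninjured levels of 4.43 to 30.6 CPM and 20 dpa levels of 0.218 to 6.80 CPM. Names such as "1 of 2" are those of the deposited tables.

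**Figure D2:**
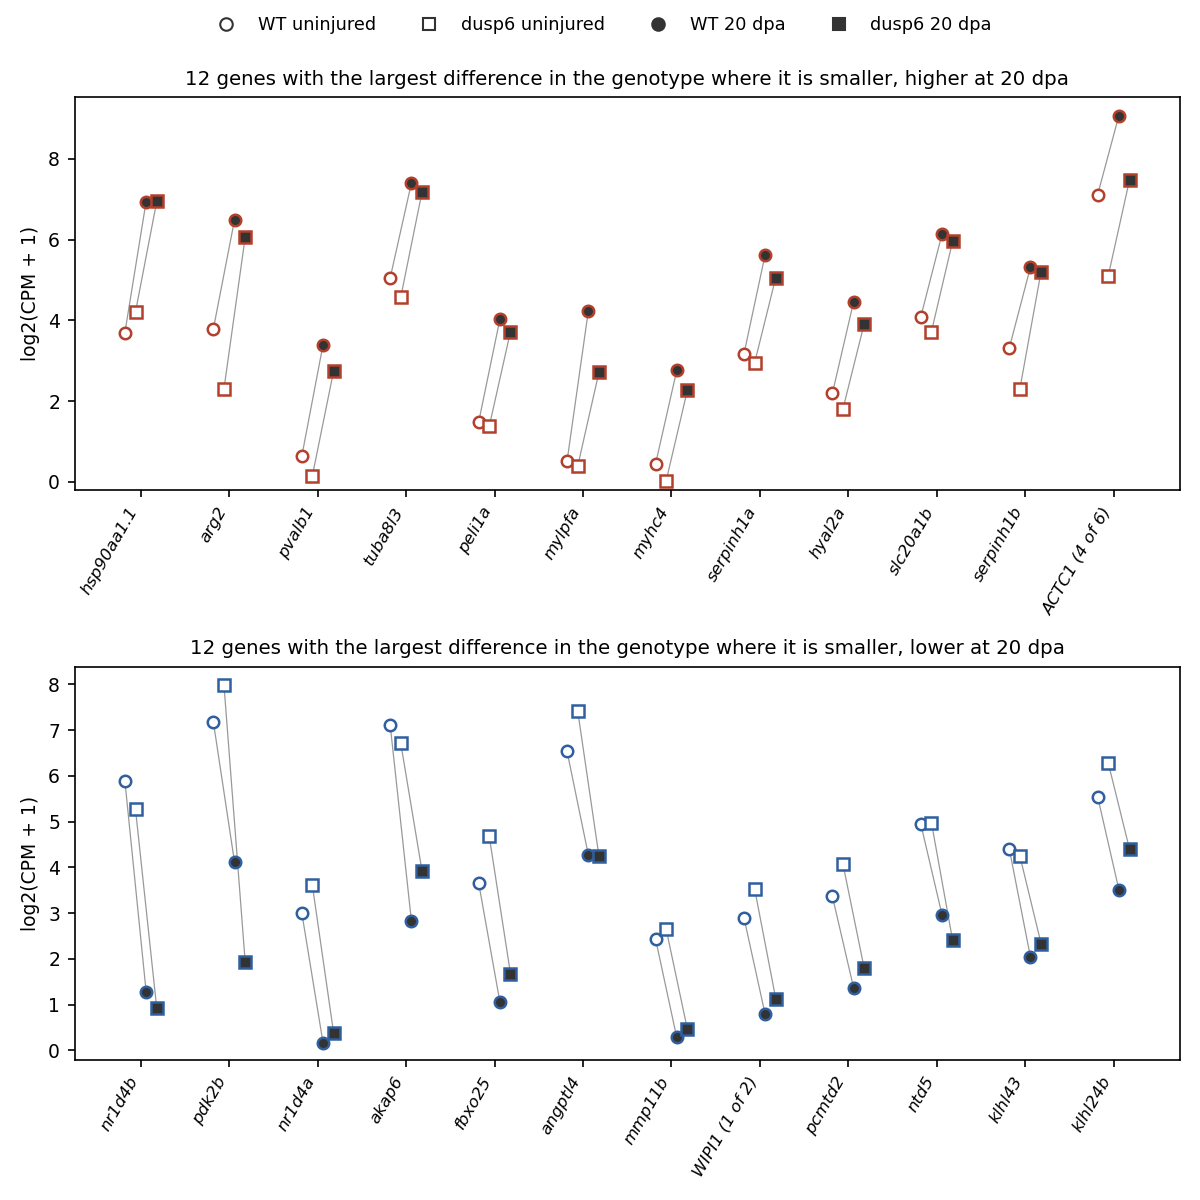
Level on the log2(CPM + 1) scale in each library for the 12 genes per direction with the largest difference in the genotype where it is smaller (top, higher at 20 dpa; bottom, lower). Open symbols are uninjured and filled symbols 20 dpa, circles are WT and squares dusp6, a line joins the libraries of a genotype, and each point is 1 library, so there is no error bar. The filled symbols lie above the open ones throughout the top panel, by least for ACTC1 (4 of 6), and below them throughout the bottom panel.

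Cytosolic and mitochondrial chaperone genes were higher as a group. Of 58 such genes above the floor, 9 (15.5%) were higher in both genotypes and none was lower by the rule, beside 1.29% and 0.979% of all genes. The median difference over the 58 genes was 0.408 in WT and 0.495 in dusp6, beside -0.0028 and -0.0085 over all genes. Above 0 in both genotypes were 45 of the 58, beside 5543 of all 15621 genes. After hsp90aa1.1, the largest differences were in DNAJA4, a J-domain partner of Hsp70, at 2.63, 1.96, 12.5 and 18.8 CPM. The Hsp110-type gene hspa4a, whose product recharges Hsp70 with nucleotide, was at 38.3, 23.6, 113 and 105 CPM. The small heat shock protein gene hspb11 was the most abundant of the 9, at 395, 251, 956 and 820 CPM.

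Cochaperones made up much of the rest. The Hsp70 cochaperone gene bag2 was at 3.13, 2.94, 10.7 and 11.6 CPM, and dnajb4 at 21.5, 19.9, 51.2 and 53.5 CPM. The Hsp90 cochaperone gene ptges3b was at 14.5, 14.5, 35.2 and 34.2 CPM. In each of these genes the genotypes differed by far less than the injury states did, which the rule favours. The heat-inducible hsp70l was at 2.72, 1.26, 8.61 and 12.9 CPM, and so was low throughout.

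The members of the Hsp90 family did not share one pattern. The neighbouring copy hsp90aa1.2 was at 28.8, 16.9, 61.4 and 64.6 CPM, a fold of 2.13 (2.01 to 2.25) in WT and 3.82 (3.57 to 4.10) in dusp6. The constitutive cytosolic gene hsp90ab1, which did not meet the rule, was at 1461, 1806, 1511 and 1855 CPM, with differences of 0.05 in WT and 0.04 in dusp6. The hsp90aa1 genes are closely related tandem copies, so reads could have been split between them and their separate values are uncertain.

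Chaperones of the endoplasmic reticulum, where secreted and membrane proteins fold, were higher too. Of 68 genes for folding and stress in that compartment, 7 (10.3%) were higher in both genotypes and none was lower, and the median difference was 0.426 in WT and 0.248 in dusp6. The main Hsp70 of the compartment, hspa5 (BiP), was at 62.7, 53.4, 192 and 140 CPM, a fold of 3.06 (2.95 to 3.17) in WT and 2.62 (2.51 to 2.73) in dusp6. The compartment's Hsp90, hsp90b1, was at 53.8, 61.9, 175 and 131 CPM. Both main chaperones were thus higher in WT than in dusp6 at 20 dpa.

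The smaller genes of the group lay between 1.75 and 7.49 CPM in uninjured ventricle. The secreted stress factor gene manf was at 7.49, 6.57, 22.8 and 19.4 CPM. The cofactor gene sdf2l1 was at 5.59, 5.34, 16.2 and 14.7 CPM, and serp1, whose product steadies new membrane proteins, at 5.70, 4.92, 15.2 and 14.0 CPM. Both genotypes moved by a like amount in these 3 genes. The remaining pair was creld2, at 2.21, 1.75, 7.02 and 5.67 CPM, and the prolyl isomerase gene fkbp7, at 5.08, 4.51, 14.9 and 16.8 CPM.

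Tubulin genes and beta-actin were higher in both genotypes. Of 67 genes for tubulins and actin dynamics, 9 (13.4%) were higher by the rule and none was lower, with medians of 0.417 in WT and 0.297 in dusp6. Tubulins supplied 7 of the 9: the alpha-tubulin genes tuba1a, tuba8l, tuba8l3 and tuba8l4 and the beta-tubulin genes tubb2b, tubb4b and tubb5. The most abundant were tubb4b, at 313, 293, 722 and 643 CPM, and tuba8l4, at 171, 154, 412 and 388 CPM. The beta-tubulin gene tubb2b was at 20.2, 20.1, 90.4 and 71.1 CPM, and tubb5, at a lower level, at 1.41, 1.88, 11 and 7.64 CPM. Not all tubulins met the rule: tuba1b, at 337, 310, 451 and 337 CPM, and tubb1, at 12.4, 10.1, 12 and 7.95 CPM, did not.

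The actin gene actb1 was at 305, 264, 931 and 632 CPM, a fold of 3.06 in WT and 2.39 in dusp6, while its paralog actb2 was at 2210, 2369, 2539 and 2264 CPM. The Arp2/3 complex nucleates branched actin, and its gene arpc5a was at 16.1, 10.9, 43.7 and 29.8 CPM. Of this group tuba1a parted most between genotypes, at 9.30, 7.89, 23.5 and 54.1 CPM. Tubulin and actin paralogs share long stretches of sequence, so reads may have been split among them.

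Genes of collagen assembly and matrix went both ways. Of 64 such genes, 4 (6.25%) were higher and 2 (3.12%) were lower, with medians of 0.51 in WT and 0.005 in dusp6. Besides the serpinh1 pair, the higher ones were loxl2a, whose product crosslinks collagen, at 1.78, 2.5, 15.2 and 6.34 CPM, and the wound matrix gene postnb, at 22.9, 19.8, 51.0 and 40.8 CPM. The lower ones were both elastin genes: elna at 38.4, 36.8, 18.1 and 14.7 CPM and elnb at 16.5, 8.79, 7.63 and 2.09 CPM. For elnb the uninjured level of dusp6 lay close to the 20 dpa level of WT, so its groups were hardly apart.

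Retinoic acid genes and epicardial markers overlapped. Of 26 retinoic acid genes, 3 (11.5%) were higher in both genotypes, yet the median of the list was 0.497 in WT and -0.025 in dusp6. The synthesis enzyme gene aldh1a2, made by epicardium and endocardium of injured zebrafish hearts, was at 42.3, 32.4, 150 and 117 CPM, a fold of 3.54 (3.39 to 3.70) in WT and 3.60 (3.42 to 3.79) in dusp6. The retinol carrier gene rbp4 was at 95.5, 104, 259 and 254 CPM, and the retinoic acid carrier gene crabp2b at 1.00, 1.03, 3.74 and 5.29 CPM. For aldh1a2 and rbp4 the folds in WT and dusp6 were of a like size.

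Of 19 epicardial markers, 3 (15.8%) met the rule: aldh1a2, the glutathione transferase gene gstm.3, at 54.5, 52.0, 132 and 106 CPM, and PTGDS (3 of 3), at 1.14, 1.24, 3.82 and 8.43 CPM. The defining transcription factor gene tcf21 was at 12, 12.5, 21.6 and 26.6 CPM and fell short in WT, with 0.80, while reaching 1.03 in dusp6. The summed level of the markers was 1168, 1253, 2275 and 1688 CPM, higher in both 20 dpa libraries than in either uninjured library. Without the 3 members it was 1070, 1167, 1989 and 1456 CPM. The part of epicardial cell number in these values was not tested.

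Skeletal muscle genes were among the largest differences. Of 33 fast skeletal muscle markers above the floor, 7 (21.2%) were higher and none was lower by the rule, with medians of 1.113 in WT and 0.524 in dusp6. A gene can pass the floor through its 20 dpa libraries alone, which favours a higher share and a higher median. Of the 33, 18 had at least 50 counts in an uninjured library, of which 1 was higher by the rule, and their medians were 0.32 in WT and 0.17 in dusp6. The calcium buffer gene pvalb1 was at 0.553, 0.114, 9.51 and 5.71 CPM, and the fast myosin light chain gene mylpfa at 0.434, 0.310, 17.8 and 5.56 CPM. The myosin heavy chain gene myhc4 was at 0.359, 0.0163, 5.78 and 3.81 CPM, where the second value is a single count. All of these were close to absent in uninjured ventricle and low at 20 dpa.

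The other parvalbumins followed: pvalb2 was at 0.209, 0.131, 6.29 and 3.33 CPM, and pvalb3 and pvalb4 also met the rule, as did tnnc2. The striated muscle actin gene actc1b was at 1.69, 1.26, 22.9 and 7.61 CPM. Other defining markers of fast muscle did not meet the rule in dusp6, such as myhz2, at 0, 0.0163, 2.34 and 0.0383 CPM, and tnni1d, at 0.0748, 0.147, 10.8 and 0.421 CPM. The sum of the list, mostly ckma, eno3 and acta1b that heart also makes, was 10100, 9181, 10490 and 11060 CPM. Leaving out the marker lists of skeletal muscle and of liver, pancreas, gut and gonad left 194 higher and 153 lower genes, and the part of other tissue in these values was not tested.

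The list of sarcomere, calcium handling and cardiac stress genes gave 4 higher (6.25%) and 1 lower (1.56%) of 64, with actc1b among the former and akap6 the latter. The slow and cardiac troponin C gene tnnc1b was at 19.5, 18.5, 60.5 and 118 CPM, and the Z-disc gene tcap at 94.9, 68.8, 227 and 333 CPM. The myosin chaperone partner smyd1b, a methyltransferase, was at 83.4, 26.1, 187 and 161 CPM. In all 3 the difference was larger in dusp6 than in WT. For smyd1b this went with its lower uninjured level in dusp6, since its 20 dpa level was higher in WT. Its membership did not hold when each uninjured library in turn served as reference for both genotypes. The actin copy ACTC1 (4 of 6), outside that list, was at 138, 33.5, 538 and 177 CPM, and there dusp6 at 20 dpa was close to WT uninjured. Against the WT uninjured library it no longer met the rule in dusp6, and actin copies share reads.

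Macrophage markers had larger differences in WT than in dusp6, which with 1 library per group was not tested. Of 39 such genes, 4 (10.3%) met the rule, and the median difference was 0.761 in WT and 0.007 in dusp6. The macrophage marker gene mfap4 was at 1.45, 1.80, 14.5 and 6.69 CPM, and the chemokine gene ccl34a.4 at 1.54, 2.04, 6.92 and 5.67 CPM. Granulins are secreted growth factors of macrophages, and their neighbouring genes grn1 and grn2 were at 7.48, 19.6, 75.6 and 40.8 CPM and at 0.254, 0.898, 3.76 and 7.41 CPM. The defining gene mpeg1.1 was not a member, at 10.3, 7.61, 14.6 and 5.77 CPM. The sum of the list was 667.4, 803.6, 1056 and 731.8 CPM, so dusp6 at 20 dpa lay below dusp6 uninjured. Without the 4 members it was 656.7, 779.3, 954.8 and 671.3 CPM, and its part in the granulin values was not tested.

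The endothelial receptor gene tek, whose product binds angiopoietins, was at 67.1, 55.7, 138 and 146 CPM and was the only one of 26 endothelial and endocardial markers to meet the rule. In the smooth muscle list 2 of 13 did: the contractile regulator cnn1b, at 5.13, 3.92, 19.7 and 10.9 CPM, and tagln2, at 41.0, 39.0, 123.3 and 94.8 CPM. The defining smooth muscle genes acta2, at 55.6, 42.8, 57.6 and 47.7 CPM, and myh11a, at 28.3, 25.7, 38.1 and 23.7 CPM, did not. No marker of neutrophils, lymphocytes, thrombocytes or neurons and glia met the rule, out of 12, 9, 16 and 7 above the floor. At the shares over all genes, 1.29% higher and 0.979% lower, lists this small would hold few or none, so nothing is read from this. The neutrophil list had medians of 0.605 in WT and 0.285 in dusp6. Of its 12 genes 8 were above 0 in both, beside 5543 of all 15621 genes. Of 35 markers of liver, exocrine pancreas, gut and gonad, 1 met the rule, rbp4, and the medians were 0.904 in WT and 0.068 in dusp6. Of these 35, 18 had at least 50 counts in an uninjured library, with medians of 0.173 and -1.173. The sum of that list was 268.1, 363.4, 464.9 and 362.2 CPM, and its part in the results was not tested.

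The alpha-globin gene hbaa1 was at 3218, 2410, 6544 and 5030 CPM, with differences of 1.02 and 1.06, just past the threshold. Of 28 red cell markers it was the only one to meet the rule, and globin copies share reads. A globin gene outside that list, zgc:92880, also met the rule, at 296, 284, 605 and 588 CPM. The globin gene ba1l, at 1889, 1321, 940 and 2333 CPM, was lower in WT and higher in dusp6 at 20 dpa. The sum of the red cell list was 14280, 10730, 17540 and 18080 CPM with hbaa1. Without hbaa1 the sum was 11060, 8322, 11000 and 13050 CPM, of like size in WT uninjured and WT 20 dpa and higher at 20 dpa than uninjured in dusp6. The part of red cell number was not tested.

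Klf transcription factors are induced by blood flow in endothelium and by stress. Of 67 immediate early and Klf genes, 4 (5.97%) were higher and 1 (1.49%) was lower. Of the 67, 64 had at least 50 counts in an uninjured library, of which 3 were higher and 1 was lower. The flow-responsive pair was klf2b, at 9.73, 15.2, 32.5 and 52.1 CPM, and klf2a, at 24.1, 21.0, 58.0 and 77.9 CPM. The others were klf4, at 0.598, 0.392, 3.56 and 3.98 CPM, and hsp70l. Only the 20 dpa libraries brought klf4 past the floor. The lower gene was klf11b, at 41.6, 60.5, 18.6 and 13 CPM, so the family did not move as one. In every one of the 3 higher Klf genes dusp6 was above WT at 20 dpa.

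Glucose use and lipid synthesis held a few higher genes. Of 50 genes of glycolysis and glucose uptake, 4 (8%) were higher and none was lower, with medians of 0.188 in WT and 0.321 in dusp6. Hexokinase 2, which traps glucose in the cell, had hk2 at 1.69, 0.947, 10.4 and 6.36 CPM. The aldolase gene aldocb was at 202, 166, 449 and 393 CPM and gapdhs at 129, 155, 353 and 319 CPM. The regulatory enzyme gene pfkfb2b, whose product makes an activator of phosphofructokinase, was at 5.04, 4.18, 11.9 and 16.1 CPM. For these 4 genes both 20 dpa libraries lay clear of both uninjured libraries, a separation that the rule itself favours.

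Of 37 genes of sterol synthesis and uptake 3 (8.11%) were higher. The fatty acid synthase gene fasn, in this list though not a gene of sterol synthesis or uptake, was at 13.6, 8.67, 45.9 and 35.8 CPM. The lipoprotein receptor gene ldlrb was at 0.434, 0.310, 3.54 and 3.39 CPM, and the sterol demethylase gene cyp51 at 1.75, 1.75, 6.11 and 9.46 CPM. Most genes of the sterol pathway did not meet the rule, and the list's medians were 0.216 and 0.282. Only the 20 dpa libraries brought ldlrb past the floor. Of the 37 genes, 33 had at least 50 counts in an uninjured library, of which 2, fasn and cyp51, were higher. The medians of the 33 were 0.132 in WT and 0.186 in dusp6. In amino acid and one-carbon synthesis, 2 of 39 genes (5.13%) were higher by the rule, beside 1.29% of all genes. They were the neutral amino acid transporter gene slc1a4, at 0.718, 0.980, 4.67 and 3.68 CPM, and mthfd1l, at 0.254, 0.212, 2.65 and 1.92 CPM. The medians of this list were 0.433 in WT and 0.368 in dusp6. Above 0 in both genotypes were 28 of the 39, and 5 were below 0 in both. Of the 39, 38 had at least 50 counts in an uninjured library, of which 1 was higher, and mthfd1l was not among the 38.

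Genes of DNA replication had medians of 0.445 in WT and 0.145 in dusp6. Of 54, only mcm2 and mcm5 (3.7%) were higher by the rule and mcm7 (1.85%) was lower, although all 3 encode parts of the same replicative helicase. The gene mcm5 was at 3.60, 3.32, 14.1 and 9.21 CPM, and mcm2 was at 3.08, 2.38, 14.5 and 5.80 CPM. In contrast mcm7 was at 18.2, 26.0, 8.01 and 7.11 CPM. Other subunits just missed the rule in dusp6: mcm3, mcm4 and mcm6 differed by 1.86, 1.92 and 1.98 in WT and by 0.93, 0.93 and 0.89 in dusp6. Of 48 mitosis genes none met the rule, with medians of 0.312 in WT and -0.38 in dusp6.

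Circadian clock genes made up the list with the largest share of members. Of 19 genes of the Rev-erb, ROR and Bmal/Clock loop, 7 (36.8%) were lower in both genotypes and none was higher, beside 0.979% of all genes, and the medians were -0.569 in WT and -0.557 in dusp6. In this loop Clock and Bmal switch on the Rev-erb genes, whose products in turn repress them. After nr1d4a and nr1d4b came the Clock gene clocka_1, at 11.6, 11.6, 2.49 and 3.24 CPM. The Bmal-type gene arntl2 was at 12.3, 13.8, 4.25 and 5.36 CPM. The repressor genes nfil3-5 and nfil3-2 were at 13.3, 12.7, 3.69 and 3.66 CPM and at 88.5, 67.7, 21.6 and 28.9 CPM. The activator gene rorcb was at 106, 99.3, 41.7 and 48.3 CPM.

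Activators and repressors of the loop were thus lower together, and in each of these genes the gap between states was wider than that between genotypes. The rule favours wide gaps between states, so nothing is read from that comparison. Not all Rev-erb genes shared the direction. The paralog nr1d2b was at 43.2, 38.6, 89.4 and 73.4 CPM, higher by 1.03 in WT and 0.91 in dusp6, and nr1d1 was at 6.68, 5.78, 4.18 and 2.70 CPM. The Bmal gene arntl1b, at 21.5, 26.8, 10.4 and 11.4 CPM, just missed the rule in WT, with -0.98, and had -1.16 in dusp6.

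Of 21 period, cryptochrome and PAR bZIP genes only 2 met the rule, in opposite directions. The activator gene dbpb, whose product opposes Nfil3 at the same sites, was at 27.2, 44.6, 8.69 and 10.7 CPM. The repressor gene bhlhe40 (Dec1), whose product holds back Clock and Bmal, was at 39.1, 29.6, 91.6 and 86.3 CPM, a fold of 2.34 in WT and 2.92 in dusp6. The median of this list was 0.076 in WT and -0.337 in dusp6, near that of all genes in WT. The time of day cannot be told apart from injury here, because the hour of sampling is not given.

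**Figure D3:**
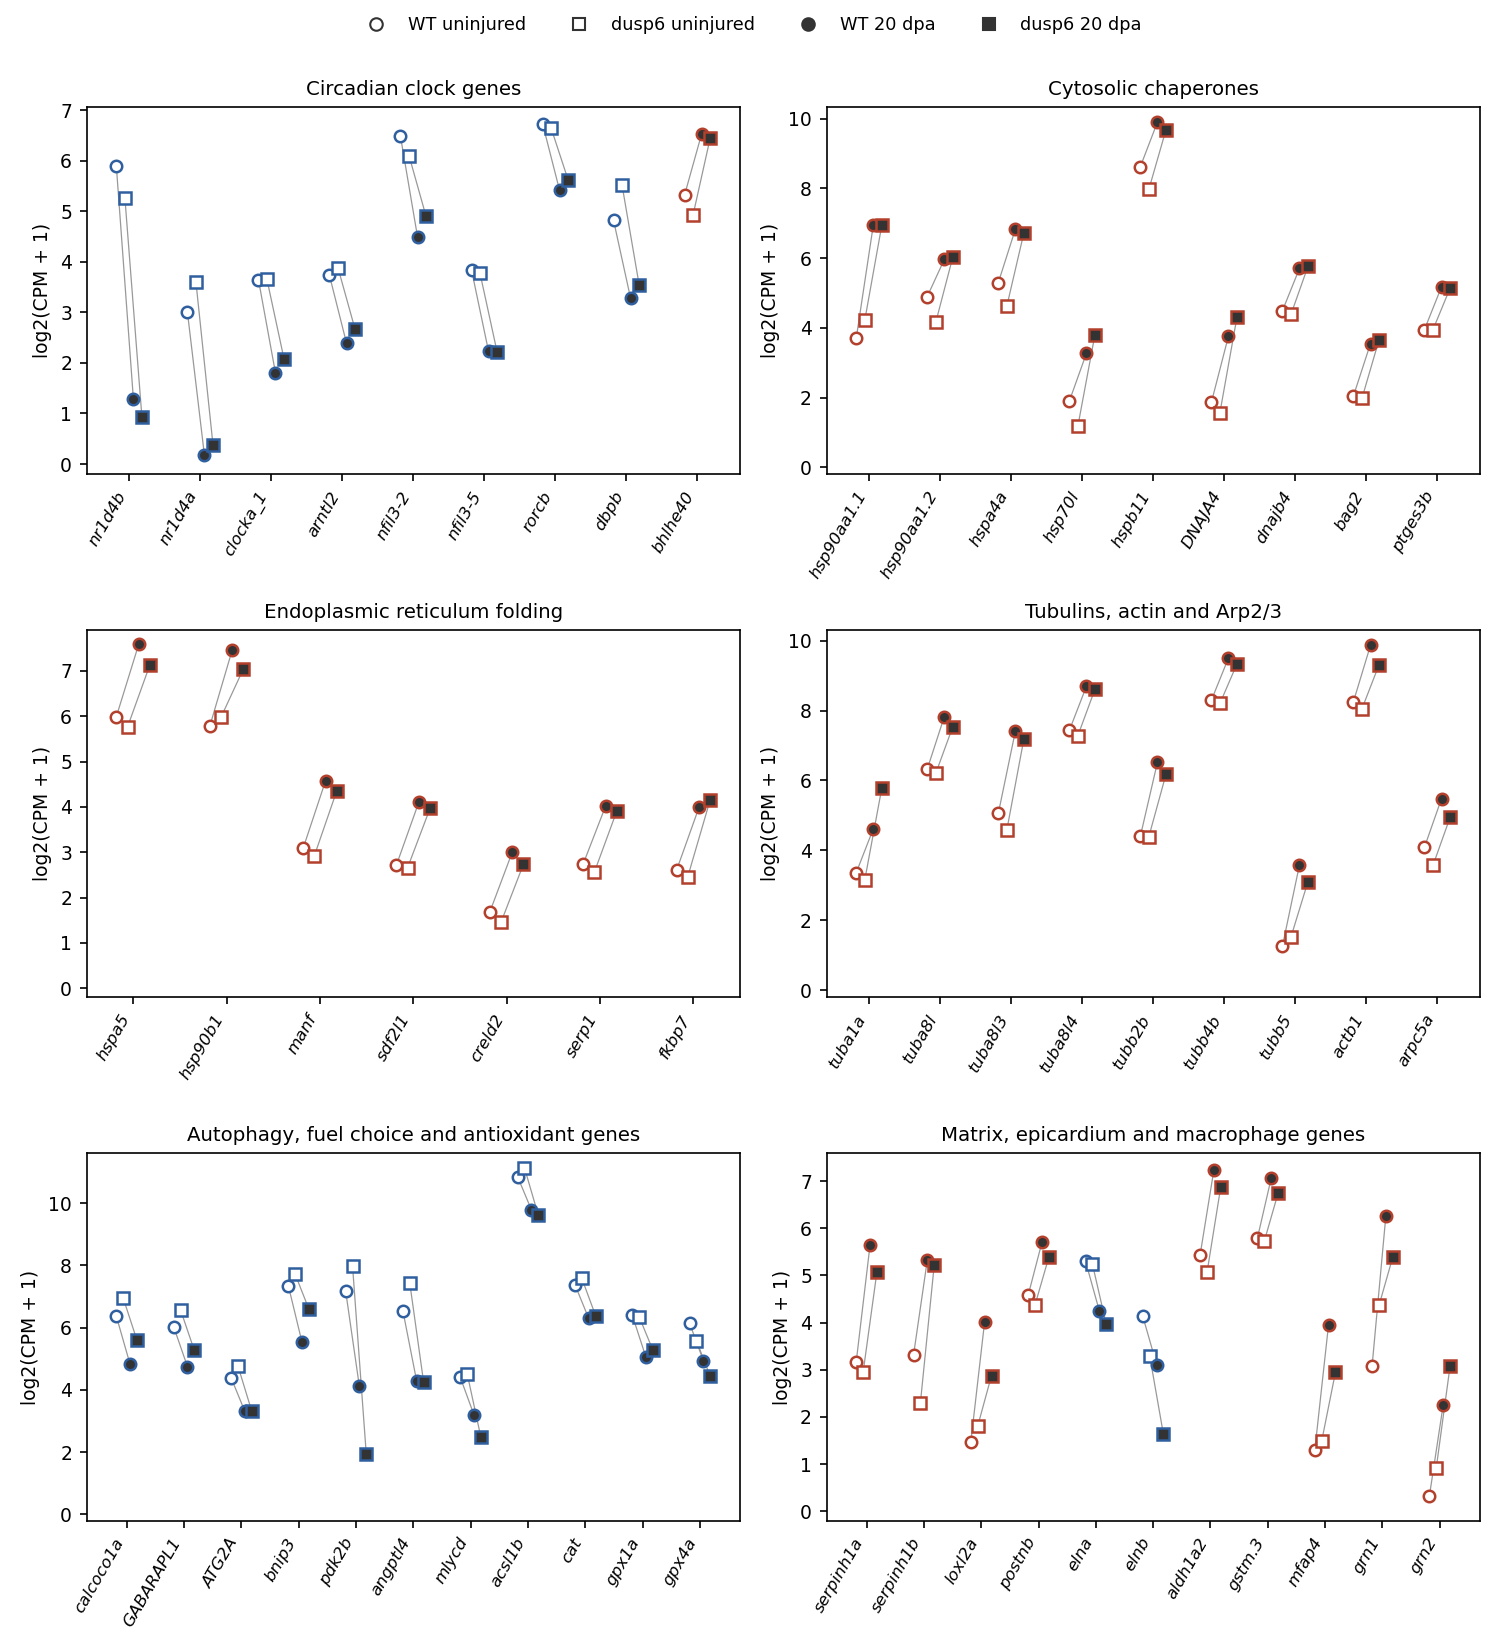
Level on the log2(CPM + 1) scale in each library for members of 6 groups of genes. Open symbols are uninjured and filled symbols 20 dpa, circles are WT and squares dusp6, red outlines mark genes higher and blue outlines genes lower at 20 dpa, and each point is 1 library; all clock genes shown but bhlhe40 are lower at 20 dpa, all chaperone, tubulin and actin genes are higher, and the elastin genes elna and elnb run against the other matrix genes.

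Some genes of fuel choice and of autophagy were lower in both genotypes. Of 68 genes of fatty acid oxidation and fuel choice, 4 (5.88%) were lower and none was higher, although the medians of the list, -0.057 in WT and -0.139 in dusp6, were near those of all genes. Besides pdk2b and angptl4 they were acsl1b, which activates long-chain fatty acids, at 1850, 2253, 886 and 787 CPM, and mlycd, whose product removes the brake malonyl-CoA from fat oxidation, at 20.2, 22.0, 8.14 and 4.56 CPM. The closest paralog pdk2a was at 501, 820, 325 and 201 CPM and passed the threshold in dusp6 only, with -0.62 in WT and -2.02 in dusp6. No enzyme of the beta-oxidation steps in this list met the rule.

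Of 58 genes of autophagy, Foxo targets and muscle atrophy 5 (8.62%) were lower and none was higher, beside 0.979% and 1.29% of all genes. Below 0 in both genotypes were 45 of the 58, beside 5736 of all 15621 genes. The medians were -0.336 in WT and -0.391 in dusp6. The selective autophagy receptor gene calcoco1a was at 81.6, 122.6, 27.2 and 47.3 CPM. GABARAPL1, whose product coats the growing autophagosome, was at 64.4, 94.1, 25.9 and 37.6 CPM, and the mitophagy receptor gene bnip3 at 163, 209, 45 and 95.4 CPM. In each of these dusp6 stood above WT in both states, and none of the 3 met the rule in dusp6 when WT uninjured served as the reference for both 20 dpa libraries. The lipid transfer gene ATG2A, at 20.1, 26.4, 8.98 and 9.06 CPM, and fbxo25 completed the group.

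Antioxidant enzymes held 3 lower genes of 38 (7.89%), all of which break down peroxides. Catalase, cat, was at 166, 192, 77.9 and 83.0 CPM. The glutathione peroxidase genes gpx1a and gpx4a were at 83.9, 80.8, 32.1 and 37.9 CPM and at 69.9, 47.0, 29.8 and 20.7 CPM. The list's medians of 0.084 and 0.092 were near 0, so these 3, picked for their size of difference, stood apart from most of their list. Membership of cat and gpx4a did not hold when each uninjured library in turn served as reference for both genotypes. That of gpx1a did not hold under every scaling and pseudocount tried.

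Smaller lists added single genes. Of 23 glucocorticoid receptor targets, the metal-binding gene mt2 was lower, at 15.0, 17.5, 2.25 and 5.27 CPM, and mao, whose product breaks down monoamines, was higher, at 20.1, 18.3, 41.8 and 46.3 CPM. A classical target of that receptor, fkbp5, was at 6.61, 11.7, 143 and 20.6 CPM, and missed the rule in dusp6. Of 53 proteasome subunit genes only psme4a (1.89%), which encodes an activator of the core particle, was lower, at 99.6, 176, 40.0 and 47.3 CPM. The share over all genes was 0.979%. Most of the list ran the other way, with 40 of the 53 above 0 in both genotypes and 4 below 0 in both. Its medians were 0.379 in WT and 0.123 in dusp6.

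**Figure D4:**
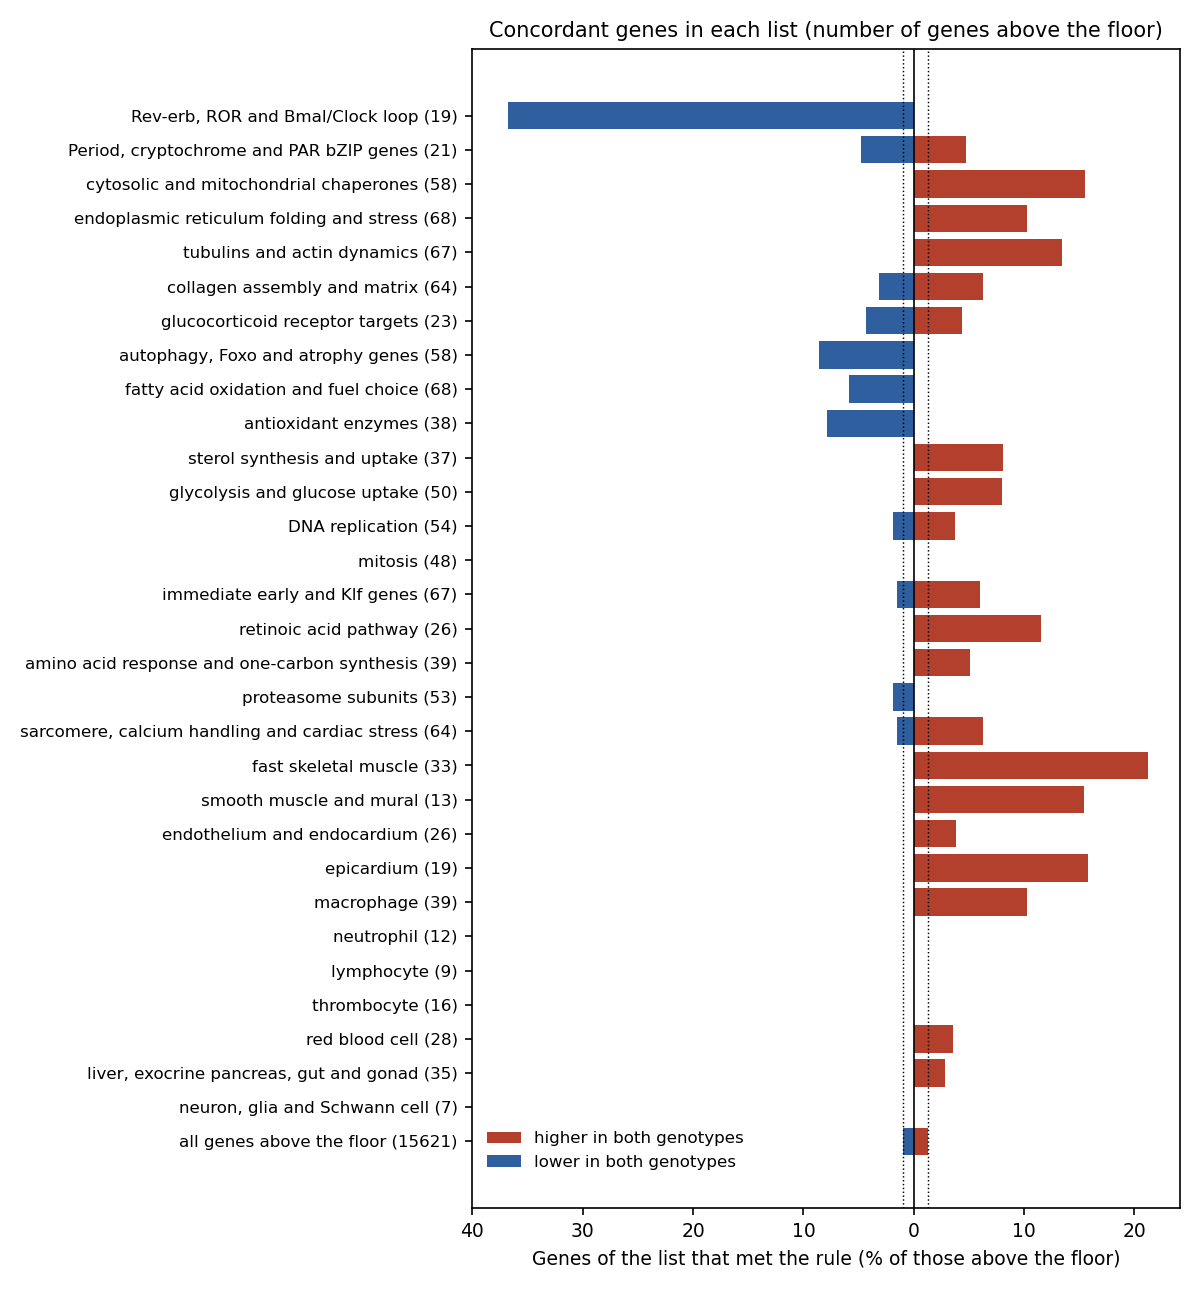
Share of the genes of each list that were higher (red, right) or lower (blue, left) by 1 or more in both genotypes, in percent of the genes of that list above the floor, whose number stands in parentheses. Dotted lines mark the shares over all 15621 genes, 1.29% higher and 0.979% lower. The longest bars are 36.8% lower for the Rev-erb, ROR and Bmal/Clock loop and 21.2% higher for fast skeletal muscle. Of the 33 fast skeletal muscle genes, 18 had at least 50 counts in an uninjured library, and 1 of those 18 was higher. The lists were written with earlier results of these data known.

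The genotypes agreed closely for some of these genes and parted for others. The median difference of the 202 higher genes was 1.39 in WT and 1.49 in dusp6, and that of the 153 lower genes was -1.26 in WT and -1.45 in dusp6. The difference was larger in size in dusp6 for 113 of the 202 higher and 94 of the 153 lower genes, beside 8708 of all 15621 genes. The genotype differences lay within 0.25 of each other for 88 higher and 70 lower genes, beside 7919 of all 15621 genes. They parted by 1 or more for 27 higher and 11 lower genes, beside 941 of all 15621. These counts describe genes picked for moving in both genotypes.

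Among higher genes the widest gaps between genotypes were in calb1, clec19a, grn1 and lin7b. The calcium buffer gene calb1 had 0 counts in both uninjured libraries, which allows up to 0.0449 and 0.049 CPM, and was at 2.58 CPM in WT and 15.6 in dusp6 at 20 dpa. The lectin gene clec19a was at 3.05, 1.32, 7.71 and 29.5 CPM, and the polarity scaffold gene lin7b at 0.239, 0.180, 3.74 and 14.5 CPM. These 3 were several-fold higher in the mutant at 20 dpa, while grn1 was higher in WT.

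Among lower genes the widest gaps were in pdk2b, si:dkey-184p9.7, akap6 and EFEMP1 (1 of 2). The gene si:dkey-184p9.7 was at 11.3, 49.2, 2.25 and 3.08 CPM, so its gap came from the uninjured libraries. The fibulin gene EFEMP1 (1 of 2) was at 35.2, 42.8, 3.91 and 15.5 CPM, so there the gap came from the 20 dpa libraries. Uninjured libraries differed by 1 or more for 10 (4.95%) of the higher and 6 (3.92%) of the lower genes, beside 3.25% of all genes. Of the higher genes 59 (29.2%) and of the lower genes 111 (72.5%) had more RNA in dusp6 uninjured than in WT uninjured, beside 51.5% of all genes, and the uninjured level enters the rule.

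Taking either uninjured library as reference for both genotypes kept 155 of the 202 higher and 91 of the 153 lower genes. For the lower gene sstr5, a somatostatin receptor at 5.70, 18, 1.85 and 6.34 CPM, the dusp6 20 dpa library lay above WT uninjured. It was the only one of the 355 whose 20 dpa and uninjured pairs overlapped, a separation that the rule itself favours. Over all genes the 20 dpa pair lay above the uninjured pair for 29.1% and below it for 29.4%.

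The edgeR quasi-likelihood fit of injury with genotype as a block called 128 genes (0.819%) at a Benjamini-Hochberg adjusted p of 0.05 or less, 84 higher (0.538%) and 44 lower (0.282%). Of the members it called 81 higher and 42 lower. The fit rests on the same differences as the rule, so nothing is read from this overlap. Its 1 residual degree of freedom comes from how far the genotypes differ in their injury difference, not from replicate libraries. The smallest adjusted p was that of nr1d4b, 0.0302, and large differences such as pdk2b (edgeR adjusted p 0.0813) and akap6 (0.0545) missed the threshold where the genotypes parted. The number of calls changed from 0 to 1404 with the settings of the fit, among which a floor of 250 counts gave 0, total-count scaling 1 and DESeq2 1404.

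The threshold falls within a continuum. The smaller difference was at least 1.5 for 54 of the higher and 30 of the lower genes, and at least 2 for 13 and 10. Just inside lay mcm2 and mat1a, with smaller differences of 1.01 each, and just outside ywhag2 and MAF1, with 0.99995 and 0.9995. Among lower genes vipr1b and stat5a lay just inside, with -1.0006 and -1.0007, and oplah and znf1099_2 just outside, with -0.999 and -0.997. These genes are alike in size on either side, so membership near the threshold says little of a single gene.

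The members were of middling abundance. Their median CPM over the 4 libraries was 10.5 for the higher and 11.4 for the lower genes, beside 8.65 for all genes above the floor. The median gene model length was 2460 bases for the higher and 2940 bases for the lower genes, beside 2760 bases for all. Of the higher genes 19 and of the lower genes 8 had fewer than 250 counts in every library.

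Some members sit side by side on the chromosome. In the gene order of the RefSeq assembly GRCz12tu, used only for neighbours, 12921 genes above the floor could be placed, 298 of them members. Of 12896 neighbouring pairs, 15 consisted of members. Of these 15, 12 pairs moved in the same direction, among them hsp90aa1.2 with hsp90aa1.1, grn1 with grn2, pvalb3 with pvalb2, pvalb4 with pvalb1 and cav2 with cav1. Several are tandem copies that may share reads. The number of pairs to be met without any grouping was not worked out, so nothing is read from the count. The lower pairs were nr1d4a with calcoco1a and ntd5 with dbpb.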

How the data were processed

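RNA of 4 zebrafish ventricle libraries, 1 per group, was analysed from a pair of deposited tables. Per the file headers the authors deposited expression values and RPKM per gene. The deposited expression values were whole numbers and were taken as raw counts that the authors had not normalized. RPKM, which the authors computed per kilobase, gave gene model lengths. No aligner, build or annotation is given in the sources used here. The uninjured columns, identical in both tables, were used once, and 0 columns of other samples were left unused. Nothing tells separate fish from one pool. The 1 residual degree of freedom of the main fit comes from how far the genotypes differ in their injury difference. Its p-values therefore do not measure variation between fish.

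Counts were scaled by TMM over genes above the floor (edgeR 4.0.16, R 4.3.3; factors 0.938 to 1.06). Differences are log2(CPM + 1) at 20 dpa minus own uninjured library, for 15621 of 31388 genes with at least 50 counts in any library. Ratios of scaled counts carry exact conditional 95% intervals. Reads were not tagged by molecule, so far as the sources say, and such reads are not independent. Intervals and floors of 3 counts therefore cover counting error only.

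edgeR's quasi-likelihood test of injury, with genotype as a block, was fitted over all genes and adjusted by Benjamini-Hochberg, with DESeq2 1.42.0 as an alternative. Alternatives also changed scaling, pseudocount, floor, threshold and reference, and left out libraries. The scripts were tested on simulated data. Named genes were the 12 largest per direction, up to 4 per list and direction, all members of the clock, chaperone and retinoic acid lists, those nearest the threshold and those parting most between genotypes. Other names, chosen after their values were seen, are non-member paralogs, markers and pathway genes set beside members. The members and all gene lists were chosen with earlier results of these data known. The tables supplied the gene symbols; 25925 identifiers, among them 327 of 355 members, were found in the gene name table. 1 gene that moved in opposite directions is not reported here. Promoter motifs and promoter base composition were not examined, and no sequences or coordinates are given. Python 3.11.15, numpy 2.4.6, pandas 2.3.3 and matplotlib 3.10.9 did the remaining work.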

Additional observations from a re-analysis of the deposited data

Results flagged for a closer look

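Of the 15 genes that moved by 1 or more in opposite directions in the genotypes, 7 with a proper symbol and at least 250 counts in the highest library are given here. With 1 library per group these differences between genotypes were not tested. Values are CPM in the order WT uninjured, dusp6 uninjured, WT 20 dpa, dusp6 20 dpa, followed by the dusp6 difference minus the WT difference on the log2(CPM + 1) scale.

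The sodium pump subunit gene atp1b1b, at 15.3, 87.5, 79.3 and 18.6 CPM, was higher in WT and lower in dusp6 at 20 dpa, a gap of -4.47. The same direction held for mhc1uba, an MHC class I gene, at 75.6, 210, 256 and 95.9 CPM with a gap of -2.87. The stress sensor gene ern1, at 12, 16.2, 27.5 and 7.57 CPM, had a gap of -2.13.

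The others were lower in WT and higher in dusp6. The gap was 3.26 for the glycogen-targeting phosphatase subunit gene ppp1r3da, at 29.6, 8.39, 7.85 and 25.0 CPM. It was 2.73 for vash2, at 22.8, 11.2, 9 and 32.9 CPM, and 2.60 for tmem37, at 8.87, 1.65, 2.76 and 5.13 CPM. The biglycan gene bgnb, at 6.79, 2.34, 2.53 and 7.49 CPM, had a gap of 2.49. In all 7 genes the uninjured libraries differed between genotypes in the direction opposite to the 20 dpa libraries. Picking genes that moved in opposite directions favours this pattern, so nothing is read from it.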

How the results depend on the processing

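The counts of 202 higher and 153 lower genes changed with the threshold, the pseudocount and the reference library. A threshold of 0.8 gave 370 and 322, one of 1.5 gave 54 and 30, and a pseudocount of 5 CPM gave 83 and 55. Without WT uninjured, when both 20 dpa libraries were set against dusp6 uninjured, they were 340 and 378, and without dusp6 uninjured 245 and 168. The other settings stayed within 1.5 times, from 162 to 272 higher and from 145 to 220 lower, with 162 and 198 under total-count scaling. Of the members, 78 higher and 55 lower met the rule under every scaling and pseudocount tried, and 66 and 42 also against either uninjured library. List medians were compared over total-count and DESeq2 scaling, a pseudocount of 5 CPM and the mean of both uninjured libraries. Those of the Rev-erb, chaperone, endoplasmic reticulum, tubulin, autophagy and skeletal muscle lists kept their sign in both genotypes. The dusp6 medians of the matrix (-0.0855 to 0.0472), retinoic acid (-0.107 to 0.0488) and macrophage (-0.0727 to 0.0435) lists did not. Nor did those of the glucocorticoid (-0.137 to 0.257), immediate early and Klf (-0.00461 to 0.232), sarcomere (-0.0215 to 0.0905), antioxidant (-0.0101 to 0.107) and endothelial (-0.139 to 0.0573) lists. In WT the medians of the endothelial (-0.0675 to 0.0664), lymphocyte (-0.0157 to 0.17) and thrombocyte (-0.000182 to 0.26) lists changed sign. No difference of a named member changed sign under these settings, DESeq2 scaling aside, which was not run for single genes. A pseudocount cannot change a sign, and members were picked for differences of at least 1 in size, so nothing is read from this.

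The 128 edgeR calls became 1404 with DESeq2, 987 with no floor and 0 with a floor of 250 counts, where 3561 genes had an unadjusted p under 0.05. Total-count scaling gave 1 call, and TMM factors over all genes, chosen after seeing the data, gave 396. Without the genotype block there were 0 calls by edgeR, with 3791 genes at an unadjusted p under 0.05. Leaving out each library in turn, with no block, gave from 0 to 26 calls, with 2470 to 3391 genes at an unadjusted p under 0.05, and the lone library was then assumed to vary like the others. The cause of these changes was not tested, beyond the smaller number of genes or samples. No paired analysis was possible because the labels give no replicate numbers, and genotype was the block of the main design. Membership could not be set without a 20 dpa library, since the rule needs both genotypes. Promoter motifs and promoter base composition were not run. With 1 library per group, depth limits only the counting error.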

Other observations

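Families outside the lists also held several of the 355 genes. These families were chosen after their values were seen, so the counts are a description. Over all 15621 genes above the floor, 1.29% were higher and 0.979% lower by the rule. Above 0 in both genotypes were 5543 of them, and below 0 in both were 5736. Caveolins and cavins shape small pits of the cell membrane. All 7 above the floor were above 0 in both genotypes, with median differences of 1.07 in WT and 0.811 in dusp6, and 3 met the rule. Of these cav1 was at 90.9, 75.6, 233 and 219 CPM in WT uninjured, dusp6 uninjured, WT 20 dpa and dusp6 20 dpa, cav2 at 11.2, 10.5, 24.7 and 24.9 CPM, and sdpra at 8.39, 5.70, 27.5 and 26.9 CPM. Lipid desaturases, elongases, Mid1ip1 genes and fasn, which serve lipid synthesis, held 6 higher genes of 10. Of the 6, fasn is also in the sterol list, degs1 acts on sphingolipids, and mid1ip1l was at 34, 17.4, 89.3 and 94.6 CPM. The fatty acid desaturase gene scd missed the rule in dusp6, with 1.62 in WT and 0.89 in dusp6. Ferritin heavy chain-like genes, which store iron, held 3 higher genes of 6. Only the 20 dpa libraries brought the higher gene zgc:173593 past the floor, with 21 counts in WT uninjured and 0 in dusp6 uninjured. The 3 were at low levels, zgc:109934 for one at 1.73, 2.29, 5.94 and 10.6 CPM. The abundant fth1a, at 1613, 1373, 1615 and 1793 CPM, and fth1b, at 31.8, 37.1, 20.2 and 27.1 CPM, did not meet the rule.

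Some substrate adaptors of ubiquitin ligases ran the other way. Of 110 F-box, Kelch-like and Asb genes above the floor 10 were lower in both genotypes and 1 was higher, beside 0.979% and 1.29% of all genes. Below 0 in both were 63 of the 110, beside 5736 of all 15621 genes. The medians were -0.282 in WT and -0.202 in dusp6. The Asb gene asb15b was at 65.8, 102, 18.8 and 20.4 CPM, and the F-box gene fbxl3a, whose mammalian counterpart marks cryptochromes for breakdown, at 36.9, 39.1, 14.6 and 16.4 CPM. All 3 Pcmtd genes above the floor were lower, among them pcmtd1 at 35.2, 52.3, 9.36 and 16.7 CPM, and so were 3 of 4 Ypel genes, among them ypel3 at 65.3, 63.1, 16.9 and 30.6 CPM. Other higher genes outside all lists included the binding protein gene igfbp6b, at 90.6, 79.8, 312 and 672 CPM, and the water channel gene aqp8a.1, at 325, 279, 1180 and 930 CPM.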
